A study of Xenopus laevis with 12 samples.

Results

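Genes of melanin synthesis and of the pigment cell, 11 in number, were followed across 3 kinds of bots made from Xenopus laevis ectoderm. They were chosen by name, as every gene whose symbol without the suffix .L or .S is tyr, tyrp1, dct, pmel, mitf, slc45a2, oca2, mlana or gpr143. The rule found these 11 among the 44478 genes of the count table: tyrp1.L, tyrp1.S, dct.L, pmel.L, pmel.S, mlana.L, slc45a2.L, gpr143.L, gpr143.S, mitf.L and mitf.S. The suffixes mark homeologs, the paired copies that this allotetraploid frog carries on its long (L) and short (S) chromosome sets. No gene of the table has the name tyr or oca2, and genes that the table describes as tyrosinase or P protein without such a name are given apart from the 11. No member overlaps another annotated gene, but reads of near-identical homeologs can be assigned to the wrong copy.

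Neurobots were animal caps, the ectoderm cut from the animal hemisphere of stage 9 embryos, that received clumps of ectodermal cells kept apart for hours after dissociation, a treatment that turns such cells to a neural fate. Sham neurobots received clumps of cells that were reaggregated at once, and biobots were animal caps with no implant. Bulk poly(A) RNA was sequenced from 4 pools of neurobots (NB1 to NB4), 4 pools of sham neurobots (NN1 to NN4) and 4 pools of biobots (XB1 to XB4). In that order the neurobot pools held 14, 12, 12 and 12 bots, the sham pools 5, 6, 6 and 5, and the biobot pools 16, 6, 6 and 5. Every neurobot pool thus held more bots than any sham pool, and pool size and bot type cannot be told apart there. Implanted cells came from the pooled caps of many embryos, the shell came from other embryos, and the age of the bots at RNA extraction is not given in the sources used here. The study describes the cells of these bots as wild type, and it describes albino shells for the calcium imaging experiments. NB1 and XB1 were submitted for sequencing before the other pools, and no sham pool was in that first submission.

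Melanin is made inside melanosomes, organelles related to lysosomes, by tyrosinase and its relatives Tyrp1 and Dct, which act on tyrosine and its oxidation products. The polymer is laid down on a fibrillar matrix built from Pmel, while transporters of the melanosome membrane set the pH and ion content that the enzymes need. In vertebrates melanin is made both by melanophores (called melanocytes in mammals), which descend from the neural crest, and by the retinal pigment epithelium, which descends from the optic vesicle and lies against the photoreceptors. The factor Mitf drives the program in both.

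Total counts ran from 28633187 to 37985824 in neurobot libraries, from 27265034 to 36028614 in sham libraries and from 29664449 to 35995421 in biobot libraries, so that 1 read was worth between 0.0282 and 0.0372 CPM. CPM are counts scaled to a common library total after TMM correction over all 12 libraries. Summed markers of neurons were between 530 and 812 CPM in neurobots, against 131 to 144 CPM in shams and 159 to 167 CPM in biobots, and epidermal markers were between 8293 and 18661 CPM, against 13211 to 19555 CPM in shams and 19452 to 22642 CPM in biobots. A gene is called where edgeR's quasi-likelihood test, fitted to all genes of the 8 libraries compared, gave a Benjamini-Hochberg adjusted p under 0.05. The labels call the pools replicates but do not say whether they came from separate clutches, so the p-values measure the spread between these pools.

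Of the 10 members that passed the expression filter, 7 were higher in neurobots than in biobots and 0 were lower, and the other 3 did not pass the test. Across all 24082 genes tested, 19.5% were called higher and 12.3% lower in this comparison. Against sham neurobots the count was also 7 higher, 0 lower and 3 not called of 10, beside 19.6% of all 24542 genes called higher and 13.2% lower. In each comparison the 7 were tyrp1.L, dct.L, pmel.L, pmel.S, mlana.L, slc45a2.L and gpr143.S, and for each of them every neurobot library lay above every library of the other group. The share of all genes with such separation is not given here, so it only describes the 7 and is no result about them. Both comparisons use the same neurobot pools. The genes tyrp1.L and dct.L passed the filter only through the neurobot libraries, so for them a higher call was close to given in advance. The same holds for genes named below with almost no reads outside neurobots. The median log2 fold change of the 10 members was 2.48 against biobots, where the median of all genes was 0.03, and 2.66 against shams, where it was 0.01. In bulk RNA, more cells of a kind and more RNA per cell cannot be told apart.

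**Figure D1:**
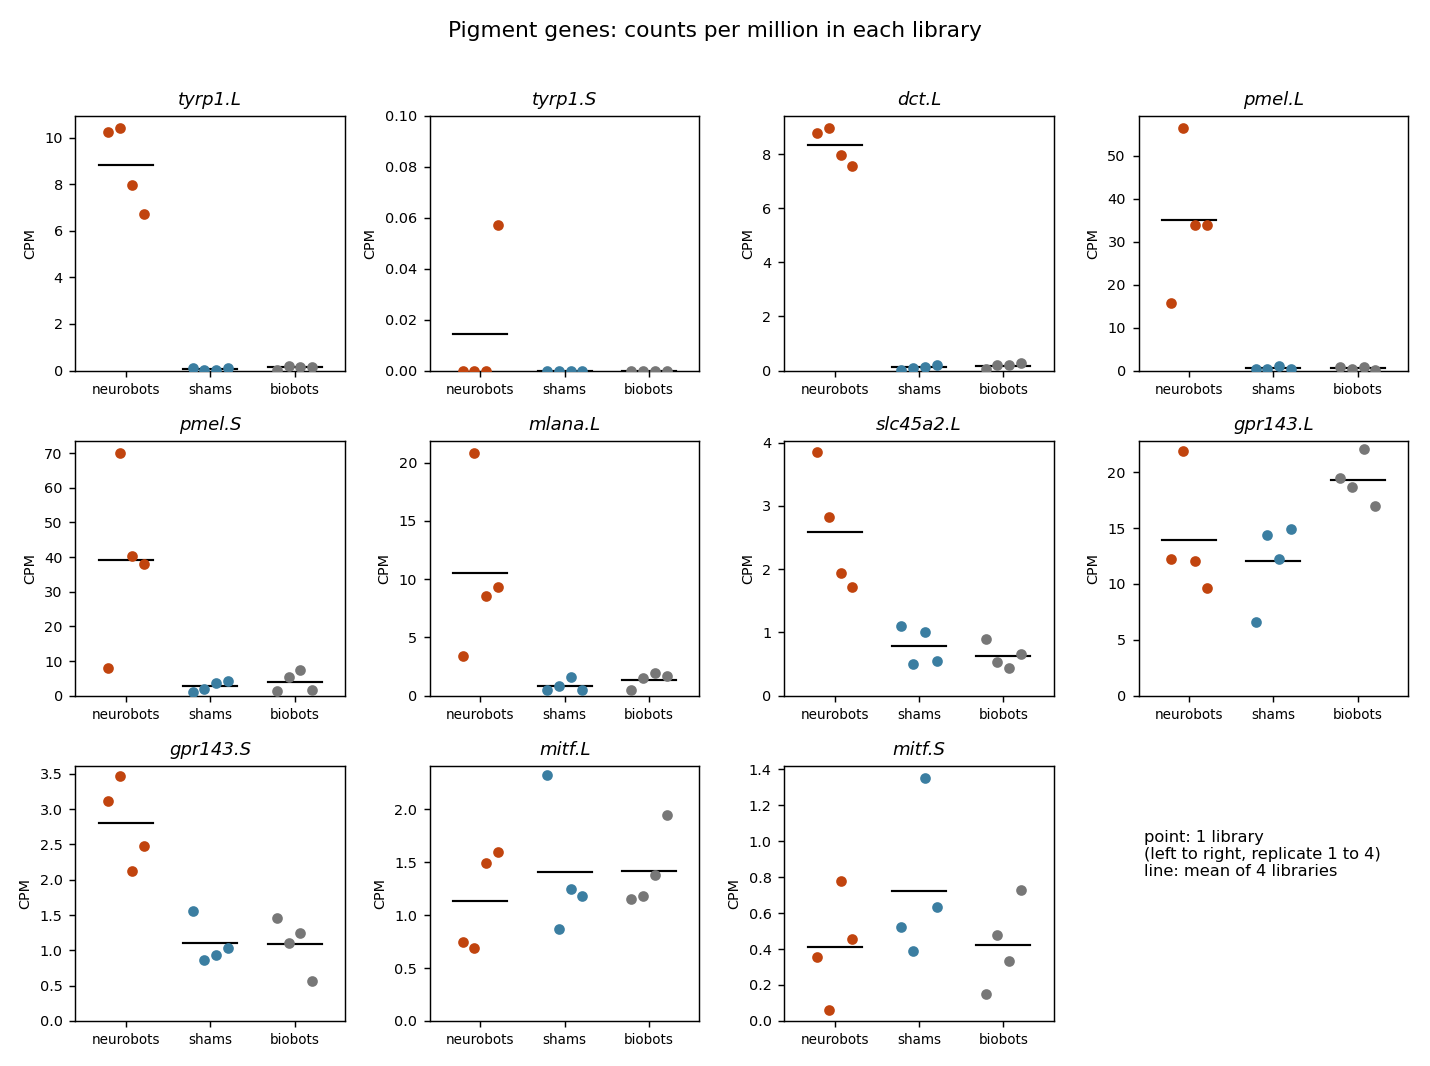
CPM (vertical axis, linear from 0, scaled separately for each gene) of the 11 pigment genes in neurobot, sham neurobot and biobot libraries; each point is 1 library and each line the mean of 4. The tyrp1.L and dct.L points of neurobots lie between 6.74 and 10.4 CPM, while no sham or biobot library exceeds 0.264 CPM; gpr143.L, mitf.L and mitf.S overlap between neurobots and each of the other groups.

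The melanin enzymes were high in neurobots and close to 0 in the other bots. Tyrp1, a relative of tyrosinase that stabilises it and acts late in eumelanin synthesis in mammals, is represented by tyrp1.L on chromosome 1L (135105881 to 135116891, minus strand; X. laevis v10.1, as are all positions here). It had 10.2, 10.4, 7.97 and 6.74 CPM in NB1 to NB4, against 0.123, 0.0299, 0.0347 and 0.0905 CPM in NN1 to NN4 and 0.0372, 0.198, 0.168 and 0.165 CPM in XB1 to XB4. All 4 neurobot libraries were high and none of the other 8 held more than 7 reads of the gene, whereas the neurobot libraries held 236 to 361. The log2 fold change was 5.90 (SE 0.40) against biobots and 6.90 (SE 0.40) against shams, with adjusted p = 7.25e-06 and 8.68e-06 in edgeR's quasi-likelihood test. The other copy, tyrp1.S on chromosome 1S, had 2 reads in NB4 and none in the other 11 libraries, and was not tested.

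Dct, dopachrome tautomerase, converts dopachrome to a carboxylated indole on the way to eumelanin. The gene dct.L (chromosome 2L, 127844114 to 127857486, plus strand; no dct.S is listed) had 8.79, 8.99, 7.97 and 7.57 CPM in NB1 to NB4. It had 0.0307, 0.0897, 0.139 and 0.211 CPM in NN1 to NN4, and 0.0745, 0.198, 0.202 and 0.264 CPM in XB1 to XB4. The neurobot libraries were nearly level, with a coefficient of variation of 8.05%, the lowest of the members, and the other groups reached at most 8 reads in a library. The log2 fold change was 5.46 (SE 0.35) against biobots and 6.10 (SE 0.40) against shams (edgeR quasi-likelihood, adjusted p = 4.8e-06 and 1.19e-05). In the shams-against-biobots comparison neither tyrp1.L nor dct.L passed the expression filter.

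Tyrosinase itself, the enzyme that starts melanin synthesis by oxidising tyrosine, has no gene of that name here, but the table describes 7 genes without a name as tyrosinase or tyrosinase-like and 1 as P protein, the product of OCA2 in humans. They were picked after values of the table had been seen. LOC108710021, described as tyrosinase (chromosome 2S, 159188600 to 159200999), had 2.66, 6.44, 4.94 and 4.14 CPM in NB1 to NB4 and no read in any sham or biobot library, which makes it at least 48.3-fold higher in neurobots than in shams and at least 45.9-fold higher than in biobots when each of those libraries is given 3 reads. It was called higher in both comparisons. LOC108708762, described as tyrosinase-like (chromosome 2L, 179133945 to 179147339), was lower in level and was also called higher in both, with 0.519, 0.838, 0.629 and 0.343 CPM in neurobots, 0, 0.0897, 0 and 0 CPM in shams and 0, 0, 0.168 and 0.066 CPM in biobots. The homeologs of rab38, which codes for a sorting factor of the melanosome, lie on the same chromosomes, at 159480828 to 159510419 on 2S and 178829672 to 178857062 on 2L.

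Another 4 of the tyrosinase-described genes lie within 136698 bases of chromosome 6S (409227 to 545924), and the 2 of them that were tested were not called in any comparison. The last tyrosinase-described gene, not on 6S, was not tested. The one with most reads, LOC100158309, had 0.876, 0.0867, 0.120 and 0.371 CPM in NB1 to NB4, against 2.42, 0.565, 1.01 and 1.58 CPM in XB1 to XB4 (log2 fold change −1.93, SE 0.72, adjusted p = 0.0628 in edgeR's quasi-likelihood test). Its sham values were 0.215, 0.957, 0.590 and 0.543 CPM, and the neurobot range overlapped with that of each other group. The P protein gene LOC108708435 (chromosome 2L, 118876671 to 119032140), a melanosome membrane protein, had 0.908, 4.22, 1.74 and 2.03 CPM in NB1 to NB4, no read in shams and at most 0.101 CPM in biobots. It was called higher in neurobots in both comparisons, at least 23.6-fold against shams and at least 22.4-fold against biobots.

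Genes for structural proteins of the melanosome, pmel and mlana, were called higher in each neurobot comparison. Pmel forms the amyloid fibrils on which melanin is deposited, and the frog has it as pmel.L and pmel.S. The gene pmel.L (chromosome 2L, 144783204 to 144791695, plus strand) had 15.6, 56.6, 34.0 and 33.8 CPM in NB1 to NB4, against 0.460, 0.269, 0.973 and 0.392 CPM in NN1 to NN4 and 0.745, 0.452, 0.907 and 0.165 CPM in XB1 to XB4. NB2 was the highest and NB1 the lowest of the neurobot libraries, and even NB1 stood far above every other pool. On the log2 scale the difference was 5.96 (SE 0.53) against biobots and 6.07 (SE 0.51) against shams (edgeR quasi-likelihood, adjusted p = 3.18e-05 and 3.41e-05).

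The gene pmel.S (chromosome 2S, 129472389 to 129482090, plus strand) had 8.01, 70.1, 40.4 and 38.02 CPM in NB1 to NB4. It had 1.07, 1.91, 3.75 and 4.10 CPM in NN1 to NN4 and 1.38, 5.51, 7.56 and 1.65 CPM in XB1 to XB4. The gap was narrow at one end, since NB1 with 8.01 CPM stood just above XB3 with 7.56 CPM. Neurobots exceeded biobots by a log2 fold change of 3.29 (SE 0.69) and shams by 3.85 (SE 0.64) (edgeR quasi-likelihood, adjusted p = 0.00418 and 0.00138). Without NB1 it was 3.60 against biobots and 4.18 against shams.

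Mlana, a small melanosome protein needed in mammals for the processing of Pmel, is represented by mlana.L (chromosome 1L, 137300388 to 137305008, minus strand). It had 3.44, 20.9, 8.54 and 9.37 CPM in NB1 to NB4, against 0.490, 0.868, 1.60 and 0.513 CPM in NN1 to NN4 and 0.447, 1.496, 1.95 and 1.65 CPM in XB1 to XB4. As for pmel, NB2 was highest and NB1 lowest among neurobots, and no library of another group reached NB1. Its log2 fold change was 2.93 (SE 0.56) against biobots and 3.61 (SE 0.59) against shams (edgeR quasi-likelihood, adjusted p = 0.00263 and 0.00123).

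**Figure D2:**
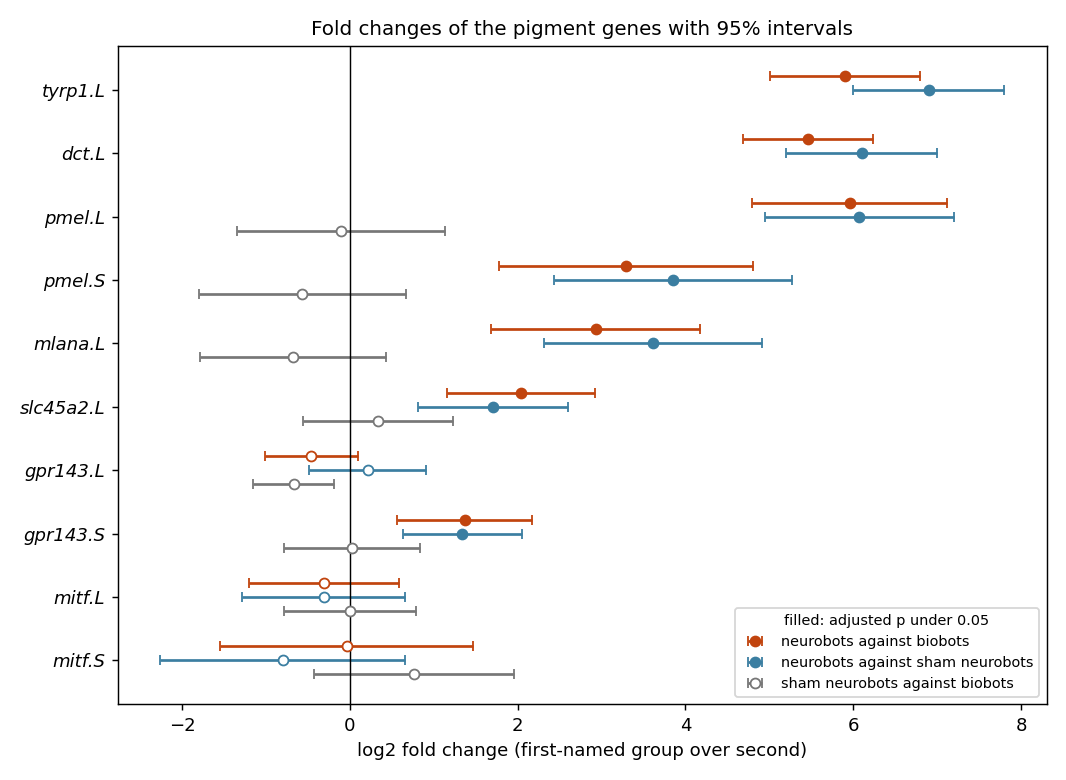
Log2 fold changes (horizontal axis) of the 10 members that passed the expression filter, with 95% intervals from edgeR's quasi-likelihood fit, for neurobots against biobots, neurobots against sham neurobots and sham neurobots against biobots; filled points have an adjusted p under 0.05. The enzymes tyrp1.L and dct.L and the matrix gene pmel.L lie between 5.46 and 6.90 in the neurobot comparisons, and all sham against biobot points are open.

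The share of the pmel homeologs was compared across the bots. The .L copy made up 66.1, 44.7, 45.7 and 47.1% of the pmel counts in NB1 to NB4, against 30.0, 12.3, 20.6 and 8.72% in NN1 to NN4 and 35.1, 7.58, 10.7 and 9.09% in XB1 to XB4. Every neurobot library thus had a higher .L share than any other library. The mean was 50.9% ± 10.2 in neurobots, 17.9% ± 9.47 in shams and 15.6% ± 13.0 in biobots (SD, n = 4 each). The highest neurobot share was in NB1 and the highest biobot share in XB1, the pools of the first submission. Among shams NN1 was highest, and no sham pool was in that submission. The part of submission in these shares was not tested. An exact two-sided permutation test gave p = 0.0286 for neurobots against shams and also for neurobots against biobots, the smallest value that 4 against 4 libraries can give. After adjustment over the 9 share tests made it was 0.0857, which misses 0.05. A value at this floor could pass only if most of the 9 tests reached the floor too, so the miss does not measure the size of the difference. The shares were planned as a description with no test.

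Shares in shams and biobots rest on few reads. The libraries XB4 and NN1 held 55 and 50 pmel reads in all, with exact binomial 95% intervals for the .L share of 3.02 to 19.95% in XB4 and 17.9 to 44.6% in NN1, whereas the neurobot library with the fewest, NB1, held 482 of pmel.L and 247 of pmel.S. These intervals cover counting error only.

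**Figure D3:**
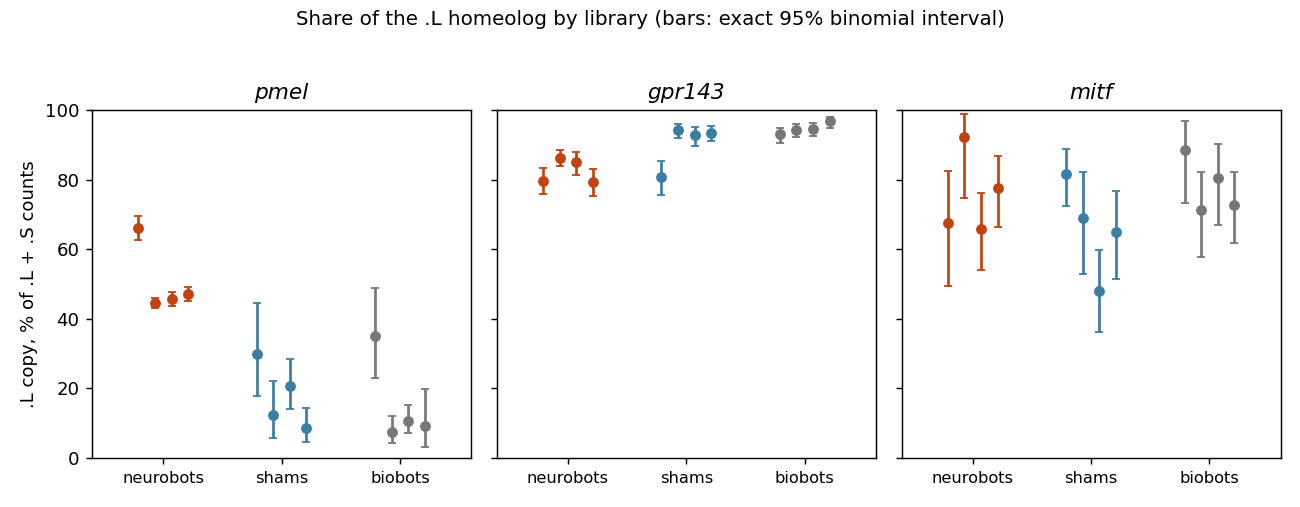
Share of the .L copy in the summed .L and .S counts (vertical axis, percent) of pmel, gpr143 and mitf in each library, with exact 95% binomial intervals, for neurobots, shams and biobots. For pmel the neurobot points lie between 44.7 and 66.1%, above every sham and biobot point, and for gpr143 they lie between 79.5 and 86.3%, below every biobot point.

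Slc45a2, a transporter of the melanosome membrane that keeps its pH suited to tyrosinase and underlies a form of albinism in humans, is represented by slc45a2.L (chromosome 1L, 216982890 to 217076415, plus strand). It had 3.86, 2.83, 1.95 and 1.71 CPM in NB1 to NB4, against 1.10, 0.509, 1.01 and 0.543 CPM in NN1 to NN4 and 0.894, 0.536, 0.437 and 0.660 CPM in XB1 to XB4. Here NB1 was the highest neurobot library, and shams and biobots were at a level above 0 in every pool. The log2 fold change was 2.04 (SE 0.40) against biobots and 1.70 (SE 0.40) against shams (edgeR quasi-likelihood, adjusted p = 0.00295 and 0.00982).

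Gpr143, a receptor of the melanosome membrane that limits melanosome size and is mutated in ocular albinism in humans, has both homeologs, of which gpr143.S was called higher in neurobots and gpr143.L was not called. The gene gpr143.S (chromosome 2S, 51993736 to 52021497, plus strand) had 3.11, 3.47, 2.13 and 2.49 CPM in NB1 to NB4, against 1.56, 0.868, 0.938 and 1.03 CPM in NN1 to NN4 and 1.45, 1.10, 1.24 and 0.561 CPM in XB1 to XB4. Every neurobot library lay above every other library, while shams and biobots overlapped, and the log2 fold change was 1.37 (SE 0.37) against biobots and 1.34 (SE 0.32) against shams (edgeR quasi-likelihood, adjusted p = 0.0158 and 0.00976).

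The gene gpr143.L (chromosome 2L, 79548068 to 79567849, minus strand) had 12.3, 21.9, 12.04 and 9.63 CPM in NB1 to NB4, 6.62, 14.4, 12.3 and 14.9 CPM in NN1 to NN4, and 19.5, 18.6, 22.0 and 17.0 CPM in XB1 to XB4. It did not pass the test in any of the 3 comparisons: the log2 fold change was −0.46 (95% interval −1.01 to 0.09) against biobots and 0.21 (−0.48 to 0.91) against shams. Of the neurobot libraries only NB2 reached the biobot range, and without NB2 the gene was called lower than in biobots (log2 fold change −0.76, edgeR adjusted p = 0.0108). All 4 sham libraries lay below all 4 biobot libraries, with a log2 fold change of −0.67 (SE 0.22) and an adjusted p of 0.092 in edgeR's quasi-likelihood test, while DESeq2 gave an adjusted p of 0.0373.

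The .L share of gpr143 counts was 82.6% ± 3.54 in neurobots, 90.4% ± 6.37 in shams and 94.7% ± 1.55 in biobots (SD, n = 4 each). Neurobots and biobots did not overlap (exact two-sided permutation test, p = 0.0286, the smallest possible, and 0.0857 adjusted over the 9 tests, which misses 0.05, with the limit given for pmel). Neurobots and shams overlapped, since NN1 had 80.9% (exact permutation p = 0.0857 before and 0.193 after adjustment). The other share tests, among them those for mitf, gave exact permutation p from 0.143 to 0.8 before adjustment. The .L copy took most of the reads in every library. With both copies summed, gpr143 was not called in either neurobot comparison. Its log2 fold change was −0.27 against biobots and 0.36 against shams (edgeR quasi-likelihood, adjusted p = 0.413 and 0.347).

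Mitf, the transcription factor that in vertebrates activates the genes of the enzymes and of Pmel, was at a low level in all bots and did not pass the test. The gene mitf.L (chromosome 4L, 142617654 to 142674243, minus strand) had 0.746, 0.693, 1.498 and 1.60 CPM in NB1 to NB4, 2.33, 0.868, 1.25 and 1.18 CPM in NN1 to NN4, and 1.15, 1.19, 1.38 and 1.95 CPM in XB1 to XB4. NN1 was the highest library and NB1 and NB2 the lowest. The log2 fold change was −0.31 in both comparisons, with 95% intervals of −1.21 to 0.58 against biobots and −1.28 to 0.66 against shams. The copy mitf.S (chromosome 4S, 121132063 to 121296005, minus strand) ranged from 0.0578 to 0.779 CPM in neurobots, from 0.389 to 1.35 CPM in shams and from 0.149 to 0.726 CPM in biobots, with log2 fold changes of −0.04 (−1.54 to 1.47) against biobots and −0.80 (−2.26 to 0.66) against shams. The intervals include sizable changes in either direction, and the counts, 2 to 59 reads for a mitf gene in a neurobot or biobot library, limit what could be seen.

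Levels of different genes can be compared in FPKM, which divide by gene length and were taken as deposited. In neurobots the order of the mean FPKM was pmel.S (16.4 ± 10.9), pmel.L (12.4 ± 6.09), mlana.L (7.58 ± 5.41), gpr143.L (5.61 ± 2.28), tyrp1.L (4.12 ± 0.87), dct.L (3.55 ± 0.32), slc45a2.L (1.31 ± 0.49), mitf.L (0.836 ± 0.348), gpr143.S (0.417 ± 0.095) and mitf.S (0.178 ± 0.128), all SD with n = 4, with tyrp1.S last. The ranges of neighbours overlapped at every step but that from dct.L to slc45a2.L, so 6 genes from pmel.S to dct.L and the lower genes from slc45a2.L down form 2 blocks within which neighbours were not separated by their spread. In biobots and in shams gpr143.L stood first, with 7.60 ± 0.84 FPKM in biobots and 4.70 ± 1.47 FPKM in shams, apart from pmel.S, which came next in each. The enzymes dct.L and tyrp1.L came last there among the genes with any reads, with 0.0489 and 0.0316 FPKM in shams and 0.0773 and 0.0650 FPKM in biobots.

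The neurobot pools differed from each other in a way that separated the members. NB1 had 0.162 times the mean pmel.S level of NB2 to NB4, 0.266 times that of mlana.L and 0.377 times that of pmel.L, on the CPM scale. For dct.L the ratio was 1.08, for gpr143.S 1.16, for tyrp1.L 1.22 and for slc45a2.L 1.78. Among genes outside the rule, the tyrosinase gene LOC108710021 had a ratio of 0.514 and the P protein gene LOC108708435 one of 0.341. Other genes described as tyrosinase or tyrosinase-like went differently: LOC108708762 had 0.860, LOC108719639 0.962, LOC108719638 1.90 and LOC100158309 4.55. LOC108704650 had no read in NB1, and LOC121395206 had reads in no neurobot library but NB1. The remaining members were mitf.L with 0.590, mitf.S with 0.827 and gpr143.L with 0.844. NB1 was thus low for pmel, mlana.L, LOC108710021 and LOC108708435, and not for tyrp1.L, dct.L, gpr143.S and slc45a2.L. The ratios of mitf.L, mitf.S, gpr143.L and LOC108708762 lay in between. NB2 was the highest library for pmel.L, pmel.S, mlana.L and gpr143.L and, by little, for tyrp1.L, dct.L and gpr143.S. The summed level of all 11 members was 66.5, 196, 117 and 111 CPM in NB1 to NB4, against 14.3 to 23.6 CPM in shams and 24.8 to 36.2 CPM in biobots.

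**Figure D4:**
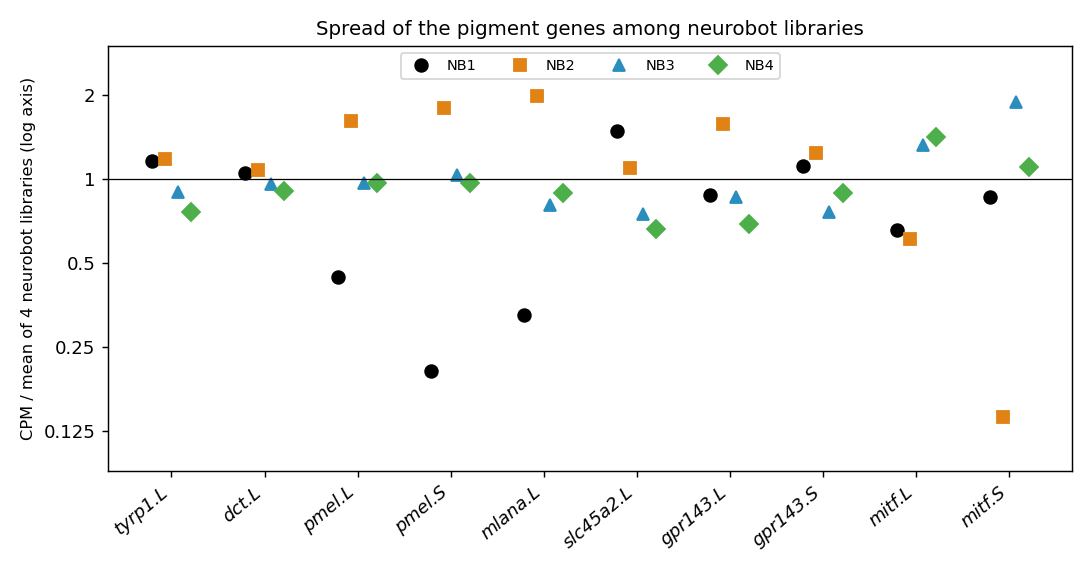
CPM of 10 pigment genes in each neurobot library divided by the mean of the 4 neurobot libraries (vertical axis, log scale). NB1 lies lowest for pmel.L, pmel.S and mlana.L and highest for slc45a2.L, while the 4 points of dct.L nearly coincide.

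NB1 belongs to the first submission, and submission and pool cannot be told apart within neurobots. XB1, of the same submission, was likewise the lowest biobot library for pmel.S and mlana.L and the highest for slc45a2.L. Unlike NB1, it was not lowest for pmel.L, and it was lowest for tyrp1.L and dct.L, on few reads. The part of submission in the pattern of NB1 was not tested. When NB1 and XB1 were left out, the log2 fold changes of the 7 called members against biobots ran from 1.46 (gpr143.S) to 6.34 (pmel.L) and each was called; against shams, without NB1, they ran from 1.28 (gpr143.S) to 6.81 (tyrp1.L) and each was called. With submission as a term in the fit against biobots, 7 members were again called higher and 0 lower.

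Between shams and biobots, the implanted and the plain non-neural bots, 0 of the 8 members that passed the filter were called by edgeR's quasi-likelihood test, while 3.55% of all 22764 genes were called higher and 2.19% lower. At an unadjusted p under 0.05 there was 1, gpr143.L, the one that DESeq2 also called. The log2 fold changes of the 8 ran from −0.68 (mlana.L) to 0.76 (mitf.S), with a median of −0.05, and their 95% intervals reached from −1.80 to 1.95.

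The wider machinery of the pigment cell was called at about the rate of all genes. A list of 49 names, covering melanosome transport, sorting, ion transport, the relatives of Mitf and the signals that act on pigment cells, matched 61 genes, of which 51 were tested. Against biobots 9 were called higher in neurobots and 4 lower, and 38 did not pass, with a median log2 fold change of −0.00. Against shams 11 were higher, 7 lower and 33 not called, with a median of 0.04. These shares, 17.6% and 21.6% higher, are near the 19.5% and 19.6% found for all genes, so the list as a whole gives no result of its own. Lower calls made up 7.84% and 13.7%, beside 12.3% and 13.2% of all genes. With counts scaled by library size alone the split was 10 higher and 2 lower against biobots and 10 higher and 3 lower against shams, and without NB1 and XB1 that against biobots was 13 higher and 9 lower.

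The 3 genes of the list with the largest changes against biobots are ednrb.L, rab38.S and rab38.L. Rab38 is a small GTPase that brings tyrosinase and Tyrp1 to the melanosome. The gene rab38.S had 2.46, 8.23, 2.88 and 3.31 CPM in NB1 to NB4 and at most 1 read in any sham or biobot library, at least 44.9-fold higher than in shams and 42.6-fold higher than in biobots. The gene rab38.L had 0.551, 1.85, 1.17 and 0.971 CPM in neurobots and at most 2 reads elsewhere, at least 12.1-fold and 11.5-fold higher. Ednrb, the endothelin receptor of melanoblasts, was represented by ednrb.L with 0.616, 6.18, 7.73 and 6.26 CPM in NB1 to NB4 and no read in the other 8 libraries, at least 55.2-fold higher than in shams and 52.5-fold higher than in biobots.

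Other members of the list, named here after their values were seen, were slc24a5.L, a cation exchanger of the melanosome with 2.59, 3.38, 1.56 and 1.89 CPM in neurobots, against 0.153 to 0.417 CPM in shams and 0.066 to 0.367 CPM in biobots, which was called higher in both comparisons. The other homeolog, slc24a5.S, stayed between 0.0324 and 0.180 CPM in neurobots and was not tested there, with 0.0347 to 0.688 CPM in shams and 0.149 to 1.32 CPM in biobots. Among the genes that move melanosomes, mreg.L and myo5a.L were called higher in both comparisons (log2 fold change 1.64 and 1.46 against biobots), and sytl2.L and rab27a.L were called lower in both (−0.88 each against biobots). None of the tested relatives of Mitf, tfe3.L, tfe3.S and tfeb.S, was called against biobots, and against shams only tfe3.L was, lower in neurobots. The receptor gene mc1r.S had 1 to 3 reads in each neurobot library and none elsewhere, so it was hardly detectable at this depth.

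The lists of markers for the cell types that could hold melanin differed in how many genes were called. The counts of every marker list are to be read beside the shares over all genes tested. Against biobots these were 19.5% higher and 12.3% lower, and against shams 19.6% and 13.2%. Of the retinal pigment epithelium list, 17 genes were found and 12 tested against biobots: 11 were called higher in neurobots and 1, ttr.L, lower, and against shams 10 were higher and 0 lower of 12. Between shams and biobots 7 genes of the list passed the filter. The others passed only through the neurobot libraries, so for them a higher call was close to given in advance. Its 3 largest changes were rlbp1.L, the retinaldehyde-binding protein, rpe65.L, the isomerase of the visual cycle, and rgr.L, an opsin of that epithelium. The gene rlbp1.L had 8.56, 47.5, 28.4 and 29.7 CPM in NB1 to NB4 and at most 2 reads in any other library, at least 303-fold higher than in shams and 288-fold higher than in biobots. The gene rpe65.L had 0.486, 13.1, 5.003 and 4.77 CPM and rgr.L had 1.297, 7.14, 5.54 and 3.83 CPM in NB1 to NB4, each with at most 1 read in another library.

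The summed level of the retinal pigment epithelium list was 146, 380, 328 and 282 CPM in NB1 to NB4, against 56.2 to 66.0 CPM in shams and 50.04 to 67.9 CPM in biobots. NB1 was thus the lowest neurobot library and NB2 the highest. The sums of the neuron, photoreceptor, and xanthophore and iridophore lists had the same lowest and highest neurobot libraries, so this order is not particular to the list. The defining marker best1 was near 0 in every group (best1.L at most 0.330 CPM in any library, best1.S at most 0.300 CPM in neurobots, 0.449 CPM in shams and 0.339 CPM in biobots), and rdh5.L had no read in NB1 and 0.600 to 0.953 CPM in NB2 to NB4. Shams and biobots, where tyrp1.L and dct.L were close to 0, also had reads of the list, so its sum does not mark the retinal pigment epithelium alone. The part of that epithelium in the levels of the members was not tested.

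The lists of the eye field and of photoreceptors were also higher in neurobots. Most of their genes passed the expression filter only through the neurobot libraries. Between shams and biobots 1 gene of each list was tested, and 5 of the neuron list. For the other tested genes a higher call in neurobots was close to given in advance, so these counts only describe the lists. All 9 tested genes of the eye field and optic vesicle list were called higher in neurobots than in biobots and than in shams, with summed levels of 46.6 to 153 CPM in neurobots, against 0.538 to 1.502 CPM in shams and 0.198 to 0.638 CPM in biobots. Of the photoreceptor list, 9 of 10 tested genes were called higher in each comparison, with summed levels of 29.6, 255, 200 and 230 CPM in NB1 to NB4, against 1.29 to 2.29 CPM in shams and 0.819 to 2.25 CPM in biobots. NB1 had the lowest sum among neurobots in both lists. The 3 largest changes were those of pax6.L, lhx2.L and rax.S in the eye field list, at least 223-, 176- and 92.4-fold higher than in biobots, and of arr3.L (at least 581-fold), crx.S and rho.S in the photoreceptor list. The epidermis list, the tissue of the shell, had 4 genes higher and 4 lower of 13 against biobots, with the largest changes in krt19.S (log2 fold change 7.30), foxi1.S (−2.63) and krt19.L (1.504). Of the neuron list, 12 of 13 genes were called higher and 1 lower in each comparison, led against biobots by stmn2.L, stmn2.S and tubb2b.S.

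The summed neural crest and melanoblast list lay above biobots in every neurobot library, by little, and overlapped with shams. Of its 14 tested genes 5 were called higher and 0 lower against biobots (35.7% and 0%), and 4 higher and 1 lower against shams (28.6% and 7.14%). All genes tested gave 19.5% and 12.3% against biobots, and 19.6% and 13.2% against shams. The summed level was 182 to 227 CPM in neurobots, 190 to 214 CPM in shams and 154 to 181 CPM in biobots. Besides ednrb.L, the largest changes were those of pax3.L, a factor of crest and dorsal neural tube, with 1.07, 2.25, 2.37 and 2.09 CPM in neurobots and at most 0.123 CPM elsewhere, and of ednrb.S. The list matched 20 genes, of which 14 were tested in each neurobot comparison. Among those that did not pass the filter were sox10.S, twist1.S and foxd3.S. The values of their .L copies are not given here, so the .S copies alone do not give the level of these crest factors. The gene sox10.S had 1.98, 0.173, 0.0599 and 0.371 CPM in NB1 to NB4 and at most 1 read in any sham or biobot library, which is 61 reads in NB1 and 2 to 13 in the other neurobot libraries. The gene twist1.S had 18, 10, 5 and 0 reads in NB1 to NB4 and none elsewhere, and foxd3.S had 3 reads in NB1 and none elsewhere. Within neurobots sox10.S and twist1.S were thus highest in NB1, whereas ednrb.L, pax3.L and ednrb.S were lowest there. The part of crest cells in the levels of the members was not tested.

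Of the xanthophore and iridophore list, the yellow and reflecting pigment cells of frogs and fish, 6 genes were found and 5 tested, and 3 were called higher and 0 lower against biobots: pax7.L, pax7.S and xdh.S, which codes for xanthine dehydrogenase. Against shams 4 of 5 were called higher and 0 lower, the same 3 and aox1.L. The summed level of the list was 13.3 to 38.7 CPM in neurobots, against 4.996 to 8.93 CPM in shams and 4.56 to 13.2 CPM in biobots, so every neurobot library lay above every other library, NB1 by little. The gene pax7.L had 1.59, 3.44, 5.90 and 3.57 CPM in NB1 to NB4, against 0.184, 0.120, 0.104 and 0 CPM in shams and 0, 0, 0.302 and 0.033 CPM in biobots. The gene pax7 also serves the dorsal neural tube, so the list does not mark these cells alone, and their part in the levels of the members was not tested.

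**Figure D5:**
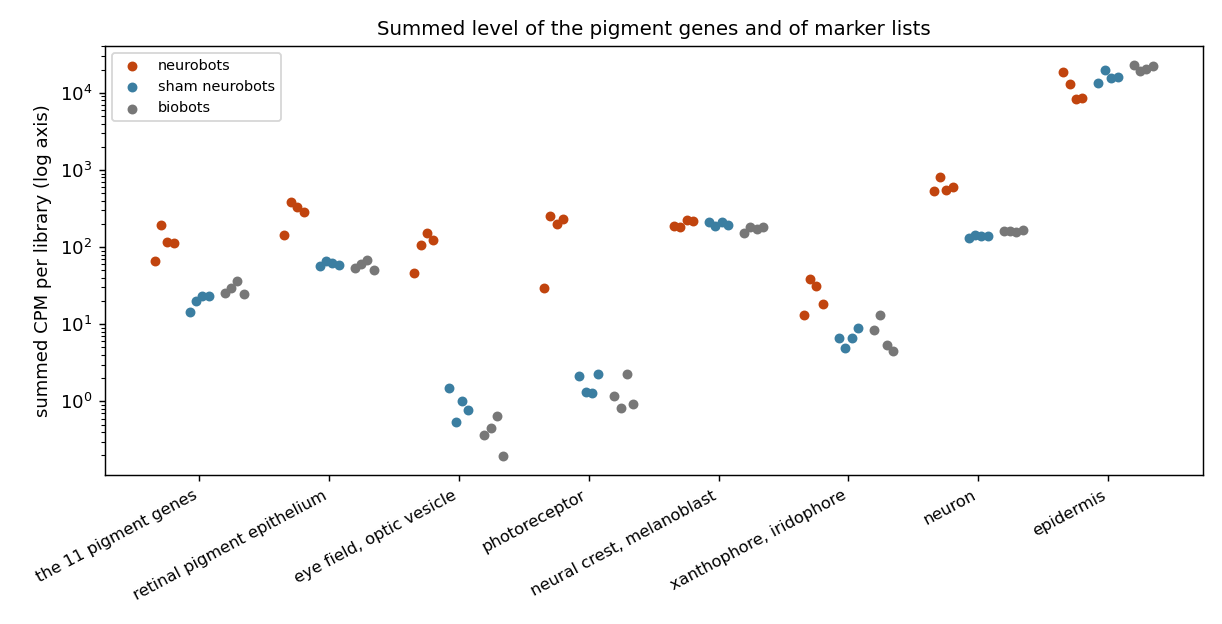
Summed CPM per library (vertical axis, log scale) of the 11 pigment genes and of the 7 marker lists in neurobots, sham neurobots and biobots; each point is 1 library. The pigment genes and the retinal pigment epithelium, eye field, photoreceptor, neuron and xanthophore and iridophore lists lie higher in all 4 neurobot libraries than in any other library. The neural crest list lies above biobots by little and overlaps between neurobots and shams.

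The profile of the matrix and enzyme genes over the 12 libraries was compared with that of 18484 other genes. The profile was the mean of the standardised log2 CPM of tyrp1.L, dct.L, pmel.L and pmel.S, and the 10 genes with a symbol and the highest Pearson r were ccn2.L (r = 0.993), znf536.L, pnhd.L, sp5.S, stc2.L, ptx3.S, btbd8.S, slc2a9.L, zic5.L and arsi.S (r = 0.986). As many as 537 genes had an r over 0.95, and all points share the division of the libraries into neurobots and the rest, so the ranking separates these genes little. The leading gene ccn2.L, a secreted matricellular factor, had 24.2 to 59.5 CPM in neurobots, against 2.70 to 3.62 CPM in shams and 3.13 to 5.96 CPM in biobots. Among the members outside the profile, mlana.L had r = 0.930, gpr143.S 0.843 and slc45a2.L 0.814, while gpr143.L had −0.03 and mitf.L −0.34. The unnamed P protein gene LOC108708435 and tyrosinase gene LOC108710021 had r = 0.990 and 0.984. Of the other tyrosinase-described genes LOC108708762 had 0.907, and the rest ran from −0.619 (LOC100158309) to 0.239 (LOC108719638).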

How the data were processed

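Bulk poly(A) RNA was sequenced from 12 pools, 4 each of neurobots, sham neurobots and biobots, grouped from the submitters' labels. By the study's methods the authors aligned clean reads to X. laevis v10.1 with HISAT2 2.0.5 and counted them per gene with featureCounts 1.5.0-p3, using a non-directional library kit; counting is not stated to use strand. The authors deposited raw counts (whole reads for each gene) and FPKM values, which scale those reads by depth and gene length.

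Tests used edgeR 4.0.16 (R 4.3.3): TMM, filterByExpr (minimum count 10, minimum total 15), then robust glmQLFit and glmQLFTest within the 8 libraries compared, Benjamini-Hochberg over all genes, threshold 0.05. The test was checked on simulated data. SE is the log2 fold change divided by the square root of F. Groups with at most 3 counts in every library give lower bounds against 3 counts. Binomial intervals are exact (Clopper-Pearson, 95%). Alternatives were DESeq2 1.42.0, limma 3.58.1 on log2(FPKM + 1), other scalings, no filter, all 12 libraries in 1 fit, summed homeologs, a replicate block, submission and leaving libraries out.

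All members are named; from each other list the 3 called genes with the largest change against biobots are named, and others are said to be chosen later. Members and lists were chosen with earlier results of these data known. Replicate numbers were not taken to pair pools.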

Additional observations from a re-analysis of the deposited data

How the results depend on the processing

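The 7 members called higher in neurobots kept the call under every alternative fit of single homeologs, 231 gene-level values for these 14 results (largest adjusted p 0.0454). Each fit covered all 7 genes, so these values are not separate fits. Against shams, leaving out the first submission and leaving out NB1 are the same fit. The count of called members was 7 under each of these fits of single homeologs except 1. Leaving out 1 library gave 7 to 8 against biobots, where gpr143.L was called lower without NB2, and 7 to 7 against shams. With homeologs summed, 5 of 7 names were called in each, and gpr143 and mitf were not. For shams against biobots 0 members were called except with DESeq2, which gave 1 (gpr143.L); leaving out 1 library gave 0 to 0. Samples with the same number did not deviate together throughout. Their correlations ran from −0.321 (NB1 with NN1) to 0.351 (NB2 with NN2, the sham library most like NB2 in this respect). The fit with a replicate block gave 7, 7 and 0 members and 11, 16 and 2 pathway genes. No member call changed with the block. For the pathway genes, refitted by alternatives chosen after seeing the data, 13 were called against biobots, 22 without the first submission and 11 to 19 when 1 library was left out, and 18 against shams (13 to 24 when 1 library was left out). Between shams and biobots 2 were called, 4 with library size alone, 8 with DESeq2, 1 with all 12 libraries in the fit, 7 without the first submission and 2 to 8 when 1 library was left out, with 7 without XB1 and 8 without NN2. Under library size alone the median over all genes stood at a log2 fold change of 0.13 against biobots and 0.16 for shams against biobots. Changes of direction were found only in members that were not called. They were mitf.S against biobots (0.12 with library size alone, 0.049 with submission as a term, −0.53 to 0.33 leaving out 1 library), gpr143.L against shams (−0.090 to 0.36 leaving out 1 library) and mitf.L against shams (−0.52 to 0.033). For shams against biobots they were pmel.L (0.066 with library size alone, 0.040 without the first submission, −0.58 to 0.21 leaving out 1 library), gpr143.S (−0.20 to 0.19) and mitf.L (−0.070 with the replicate block, −0.012 with DESeq2 size factors, −0.022 without the filter, −0.012 with DESeq2, −0.0099 with all 12 libraries, −0.028 with limma, −0.087 without the first submission, −0.36 to 0.19 leaving out 1 library); the cause was not tested. On FPKM the mean .L share of gpr143 was 92.7% in neurobots, 96.1% in shams and 98.0% in biobots. By Spearman's rho 0 of the 10 most alike genes were among the first 10. Depth limits mitf, tyrp1.S and the pmel shares outside neurobots. In 39 groups of 4 libraries with enough reads, no library of a member or of a tyrosinase or P protein gene stood apart by Dixon's test.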
